A study of Mus musculus with 29 samples.

Results

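RNA was sequenced from 3T3-L1 cells at 4 time points of adipocyte differentiation, and the genes described here are those of TGF-beta and BMP signalling: ligands, receptors, extracellular antagonists, latent TGF-beta binding proteins, SMADs, nuclear co-repressors and ID proteins. The members were 41 symbols chosen by name, and each was matched through its Ensembl identifier to the deposited count table. Of these, 37 were among the 11959 genes of the table, and Bmp4, Eng, Fstl3 and Nog were not analysed here. 3T3-L1 is an established line of mouse preadipocytes. Cells at full confluence received 10 µM KDM5-C70, an inhibitor of the KDM5 histone H3K4 demethylases (hereafter C70), or the DMSO vehicle, from day -2 to day 0. Differentiation medium containing dexamethasone, insulin, IBMX and a PPARγ agonist was then given until day 2, followed by medium with insulin and dexamethasone, so that every group after day 0 had received a glucocorticoid and C70 was no longer added. There were 29 samples in 8 groups: at each of days 0, 1 and 2 vehicle was measured in 3 samples and C70 in 4, and at day 7 each was measured in 4. All groups come from the same cell line, and nothing in the sources used here says whether replicates were separate cultures, so the P values measure the spread between these samples.

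Libraries held between 16320275 and 24037170 counts in all, and the lowest count of any member in any sample was 11. Levels are given as CPM, counts scaled to a library total of 1000000 after correction by the trimmed mean of M values (TMM) method. All 13 adipocyte markers listed for this report, such as Adipoq and Fabp4, were in the table, and all 13 rose in vehicle cells by day 1. Of 10 preadipocyte markers 8 were in the table. No gene of the endothelial or epithelial lists (6 each) was among the tabulated genes, and only Cd68 of 6 macrophage genes was, at a summed level of 1.13 to 1.67 CPM in day 0 vehicle and 18.7 to 19.8 CPM in day 0 C70 samples. Replicate 1 of the day 7 vehicle group stood apart for several members, with Bmpr2 at 56.9 CPM against 107 to 132 CPM in the other 3 samples, Tgfbr1 at 33.9 against 46.6 to 58.9 and Smad4 at 43.2 against 59.5 to 62.6. Day 7 calls that were lost without it are named where they are given.

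TGF-beta family ligands are secreted dimers that bring together type I and type II receptor kinases on the cell surface. The activated type I receptor phosphorylates receptor SMADs, SMAD2 and SMAD3 for TGF-betas and activins and SMAD1 and SMAD5 for BMPs, which join SMAD4 and enter the nucleus. TGF-betas are stored in the matrix in a latent form bound to LTBP proteins, and antagonists such as gremlin and follistatin capture BMPs and activins outside the cell. SMAD6 and SMAD7 inhibit the pathway, SKI, SKIL and TGIF1 repress SMAD target genes, and the ID genes are classic targets of BMP signalling. In preadipocytes TGF-beta and activin are known to restrain differentiation through SMAD3, whereas BMP signalling favours commitment to the adipocyte lineage.

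RefSeq promoter windows (GRCm38.p6) were at hand for 27 of the 37 members, as 37 windows of 300 bases that run from 250 bases before to 50 bases after an annotated start. Below are the 250 bases before the start of 4 members whose values recur in the results: Inhbb, higher after C70 at all 4 days; Grem1, the member with the largest fall in vehicle cells; Tgfb2, whose difference between C70 and vehicle changed sign; and Ltbp1, whose difference was larger at day 7 than at day 2. They are written 5′ to 3′ on the strand of the gene, with the letters GGCGC and CAGAC, short boxes known to bind SMADs, in capitals wherever they or their reverse complements occur. They lie at chr1:119422249-119422498 (Inhbb, minus strand), chr2:113758649-113758898 (Grem1, minus strand), chr1:186705990-186706239 (Tgfb2, minus strand) and chr17:75005279-75005528 (Ltbp1, plus strand).
Inhbb: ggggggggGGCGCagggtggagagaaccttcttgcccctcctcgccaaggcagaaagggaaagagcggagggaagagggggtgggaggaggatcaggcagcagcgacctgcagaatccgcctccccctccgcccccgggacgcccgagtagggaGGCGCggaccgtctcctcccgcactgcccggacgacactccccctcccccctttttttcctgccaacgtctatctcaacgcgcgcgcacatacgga
Grem1: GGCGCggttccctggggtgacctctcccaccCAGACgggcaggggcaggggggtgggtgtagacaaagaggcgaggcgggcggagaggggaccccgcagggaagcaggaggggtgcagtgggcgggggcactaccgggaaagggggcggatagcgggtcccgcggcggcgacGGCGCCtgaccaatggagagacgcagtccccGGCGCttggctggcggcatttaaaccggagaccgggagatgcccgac
Tgfb2: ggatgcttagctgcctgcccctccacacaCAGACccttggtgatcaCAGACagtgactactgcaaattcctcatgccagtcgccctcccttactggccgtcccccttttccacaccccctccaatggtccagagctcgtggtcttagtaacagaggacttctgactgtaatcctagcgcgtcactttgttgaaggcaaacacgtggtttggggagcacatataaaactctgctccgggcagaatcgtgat
Ltbp1: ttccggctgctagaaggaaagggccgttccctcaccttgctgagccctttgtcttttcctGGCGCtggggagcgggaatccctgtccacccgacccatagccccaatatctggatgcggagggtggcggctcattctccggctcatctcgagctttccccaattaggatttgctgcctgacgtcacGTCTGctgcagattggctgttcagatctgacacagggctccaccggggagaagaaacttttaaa
Inhbb and Grem1 have GC-rich upstream sequence with 68.0% and 72.0% G and C and 2 and 4 GGCGC boxes. Boxes were counted on each strand, so that the GGCGCC of Grem1, which reads the same on both strands, counts on both. Tgfb2, at 53.6%, has 0 GGCGC and 2 CAGAC boxes, and Ltbp1 has 1 of each.

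The same letters were searched in every window on both strands. GGCGCC, which contains GGCGC, was found in 32.4% of the 37 member windows, in 21.5% of 11494 windows of genes in the table and in 11.9% of all 32851 windows. GGCGC alone was in 64.9%, 64.1% and 36.9%, and CAGAC in 40.5%, 46.8% and 49.6%. GTCTAGAC was present in 2.7% of member windows, 0.244% of those of tabulated genes and 0.213% of all, and its only member was Smad6. A ratio of observed to expected CpG over 0.6 was found in 83.8% of member windows against 72.1% for tabulated genes, a measure added after the data were seen. These matches describe letters in a window and are not measurements of binding.

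To ask how the pathway is set during normal differentiation, vehicle samples at days 1, 2 and 7 were compared with day 0 vehicle samples by edgeR's quasi-likelihood test, calling a gene changed where its Benjamini-Hochberg adjusted P over all genes was under 0.05 and its log2 fold change exceeded 0.32 in size, the fold threshold. Most members fell. Of 37 members, 27 were called at day 1 (7 higher and 20 lower), 30 at day 2 (5 higher and 25 lower) and 34 at day 7 (6 higher and 28 lower). The day 7 call of Smad4, at -0.36 on the log2 scale, was lost without replicate 1 of the day 7 vehicle group (-0.25). Over all tested genes the called share was 54.1%, 65.8% and 73.5%, the share called higher 26.2%, 33.4% and 36.7%, and the share called lower 27.9%, 32.4% and 36.7%, against 54.1%, 67.6% and 75.7% of members called lower. The median log2 fold change of the members was -0.54, -0.78 and -0.90 on the 3 days, with 0.01, 0.02 and 0.01 over all genes.

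The fall was largest for the antagonist Grem1, which dropped 42.04-fold by day 7, and for the secreted glycoprotein Fstl1, which dropped 20.4-fold. On the scale of CPM per kb of exon, which allows different genes to be compared, Fstl1 (368 ± 14.5, SD, n = 3) and Grem1 (287 ± 8.71) were the highest members in preadipocytes, well above Ltbp2 (78.95 ± 5.205). At day 7 in vehicle cells the order was led by Ltbp3 (73.03 ± 3.51, n = 4), Id1 (44.1 ± 6.21) and the co-receptor gene Tgfbr3 (39.4 ± 4.898), with Fstl1 at 18.03 ± 4.64. After C70 the day 7 order was Ltbp3, Tgfbr3, Id1 and Fstl1, the last at 43.1 ± 3.55 CPM per kb against 46.03 ± 2.53 for Id1, and Id1 and Fstl1 lay within their spreads of each other. The 6 members that rose by day 7 in vehicle cells were Tgfbr2, Acvr1b, Acvr2b, Acvrl1, Ltbp3 and Id1, of which 4 encode receptors. The other receptor and co-receptor genes did not rise: Tgfbr1, Tgfbr3, Acvr1, Acvr2a and Bmpr2 were called lower and Bmpr1a was not called. Over all genes 36.7% were called higher, and the receptor genes were not tested as a group.

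**Figure D1:**
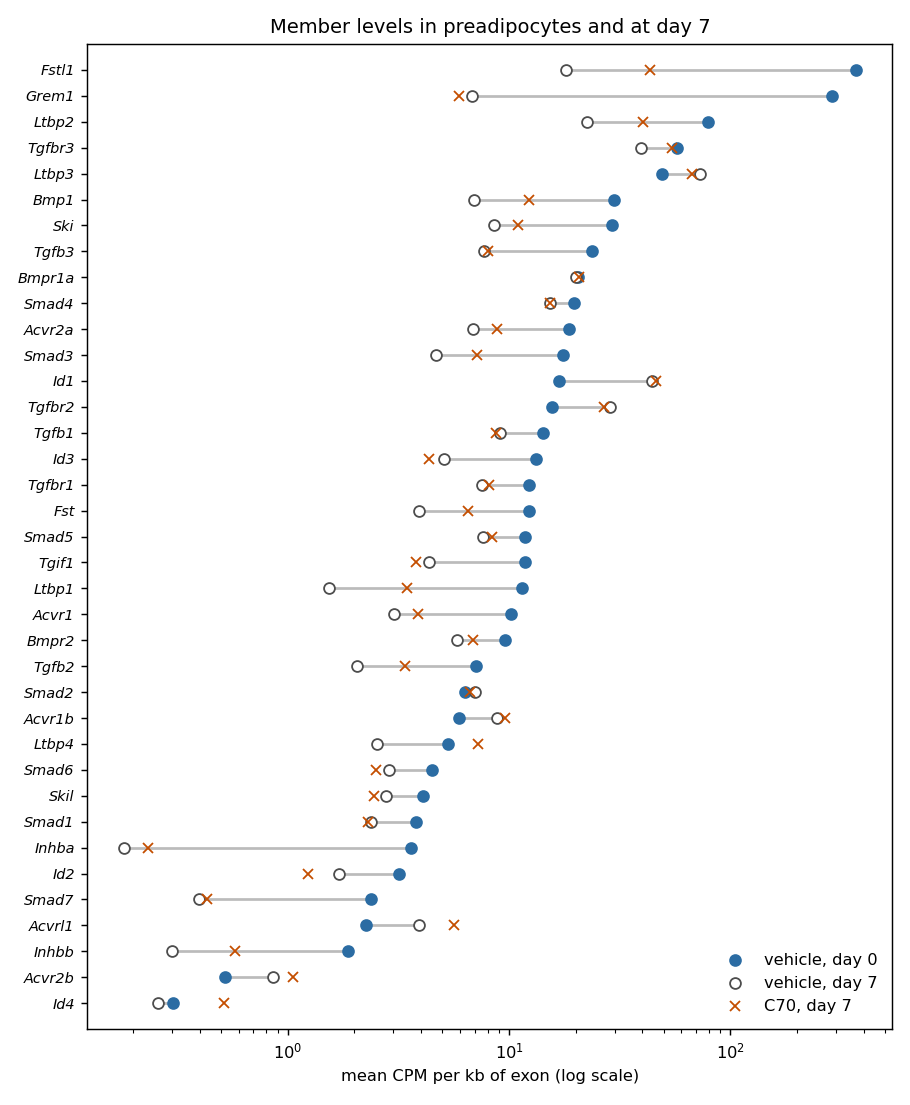
Mean level of each of the 37 members in CPM per kb of exon (log axis), in vehicle samples at day 0 (filled blue circles, n = 3) and day 7 (open circles, n = 4) and in C70 samples at day 7 (crosses, n = 4); grey lines join the vehicle means. Members are ordered by their day 0 level, and Fstl1 and Grem1 move from the top at day 0, at 368 and 287, to far lower day 7 levels.

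Whether expression differed after the inhibitor was asked day by day, C70 against vehicle. With the same test 6 members were called at day 0 (4 higher and 2 lower), 14 at day 1 (12 higher, 2 lower), 19 at day 2 (18 higher, 1 lower) and 16 at day 7 (15 higher, 1 lower). The share of all genes called was 8.97%, 21.4%, 30.5% and 19.1% on these days, and that of the members 16.2%, 37.8%, 51.4% and 43.2%. Called higher were 5.89%, 13.6%, 16.9% and 14.3% of all genes against 10.8%, 32.4%, 48.6% and 40.5% of members. Called lower were 3.09%, 7.8%, 13.6% and 4.85% of all genes. The median log2 fold change of the members was 0.07, 0.16, 0.28 and 0.14. Sample ranges that did not overlap were common in the table as a whole. C70 samples lay wholly above vehicle for 18%, 24.4%, 28.2% and 16.5% of all genes on the 4 days. For members the shares were 40.5%, 54.1%, 59.5% and 35.1%. C70 samples lay wholly below vehicle for 16%, 23.8%, 29% and 12.8% of all genes and 10.8%, 8.11%, 13.5% and 2.7% of members. Lack of overlap for a single member below is to be read beside these shares. Quantile normalization changed the split over all genes at day 1 from 63.6% higher among the called to 50.9%, and at day 7 from 74.6% to 60.5%, while members were 10 higher and 3 lower at day 1 and 14 and 1 at day 7. With size factors by relative log expression, or with DESeq2, the members at day 2 were 16 higher and 3 lower, since Smad3 and Ski lost their calls and Smad6 and Skil were called lower. Without replicate 1 of the day 7 vehicle group 12 members were called at day 7, all higher. The vehicle samples of all 4 days enter both sets of comparisons, which are therefore not independent, and their values are set side by side below.

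**Figure D2:**
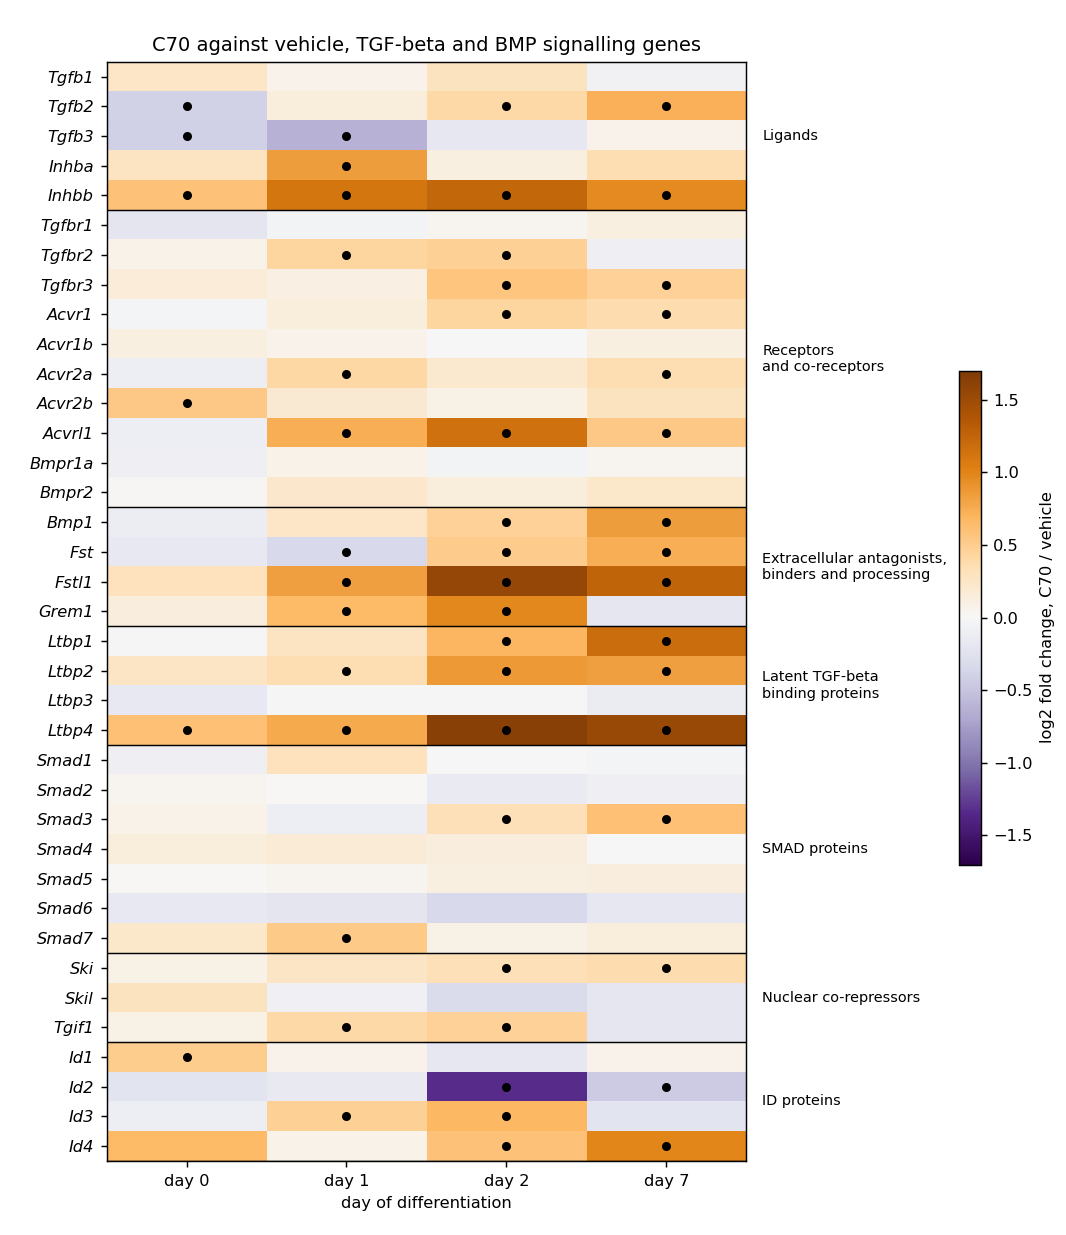
Log2 fold change of C70 over vehicle (colour, orange higher and purple lower after C70) for the 37 members (rows, grouped by role) at days 0, 1, 2 and 7 (columns); a black dot marks a call past both thresholds. Dots gather in the rows of extracellular antagonists, binders and processing and of LTBP genes at days 2 and 7, where Ltbp4 reaches 1.63, while the 7 SMAD rows hold 3.

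Markers of the cells' state moved over the same days. At day 0 the summed level of the 13 adipocyte markers was 1402 to 1533 CPM in vehicle and 1622 to 1676 CPM in C70 samples, without overlap, with 2 called higher and 2 lower, and 3 of 8 preadipocyte markers rose while their sums overlapped. At day 2 the adipocyte sum was 26178 to 26984 CPM in vehicle and 15510 to 17169 CPM in C70 samples, and 10 of 13 fell. The 8 preadipocyte markers summed to 3443 to 3516 CPM in vehicle and 5879.6 to 6253 CPM in C70 samples at day 2, and 7 of 8 rose. At day 7 the adipocyte sums overlapped (30614 to 36275 and 33494 to 37025.1 CPM), with 2 of 13 higher, while the preadipocyte sums were 2227 to 2914 and 4755 to 5486 CPM and 7 of 8 rose. At day 1, 9 of 13 adipocyte markers fell, while of the 8 preadipocyte markers 5 rose and 1 fell and their sums overlapped slightly (8193 to 9091 CPM in vehicle and 9060 to 9993 CPM after C70). Single genes of other lists were also higher after C70, each the only one of 6 in the table: the brown adipocyte gene Ppargc1a at days 1, 2 and 7 (log2 fold changes of 0.62, 1.03 and 0.73), the muscle gene Des at days 0, 1 and 2 (0.86, 1.515 and 0.47) and Cd68 at days 0, 1 and 2 (3.85, 2.90 and 2.06). In bulk RNA, more cells of a kind cannot be told apart from more RNA in each cell, and the part of these markers in the member differences was not tested.

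The 3 TGF-beta ligands differed in how they responded. Tgfb3, which encodes the most abundant of them per kb in preadipocytes, was at 78.03, 77.8 and 84.7 CPM in the 3 day 0 vehicle samples and at 59.7, 62.8, 58.9 and 60.7 CPM in the 4 C70 samples. At day 1 it was at 41.02, 44.5 and 41.6 CPM in vehicle and 27.1, 25.8, 27.9 and 28.6 CPM in C70 samples. C70 samples were lower on both days with no overlap, and Tgfb3 fell with a log2 fold change of -0.41 (SE 0.054, adjusted P = 1.66e-06) at day 0 and -0.63 (SE 0.059, adjusted P = 5.82e-10) at day 1. It did not pass both thresholds at day 2, with -0.18 (SE 0.064, adjusted P = 0.0230), or at day 7, with 0.06 (SE 0.059, adjusted P = 0.448).

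Tgfb2 crossed from lower to higher. Its level at day 0 was 39.5, 38.3 and 44.8 CPM in vehicle and 32.6, 31.7, 28.1 and 31.6 CPM in C70 samples, and at day 7 11.5, 12.1, 12.5 and 11.7 CPM and 19.6, 17.5, 18.98 and 22.5 CPM. The ranges did not overlap on either day, with C70 lower at day 0 and higher at day 7. Its log2 fold change was -0.40 (SE 0.072, adjusted P = 0.000136) at day 0, 0.14 (SE 0.081, adjusted P = 0.173) at day 1, 0.39 (SE 0.079, adjusted P = 0.000118) at day 2 and 0.72 (SE 0.081, adjusted P = 2.18e-08) at day 7, and the effect at day 2 differed from that at day 0 by 0.79 (SE 0.11, adjusted P = 6.85e-07). At day 2 the samples read 18.3, 20.3 and 18.3 CPM in vehicle and 25.1, 26.8, 24.4 and 23.4 CPM after C70.

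Tgfb1, the best studied isoform, did not pass the fold threshold for C70 against vehicle at any day. Its levels at day 0 were 67.5, 76.1 and 72.4 CPM in vehicle and 86.4, 87.6, 85.9 and 80.3 CPM in C70 samples, and at day 2 58.8, 63.2 and 64.97 and 79.1, 76.5, 70.8 and 76.1 CPM. C70 samples lay above vehicle on both days, by log2 fold changes of 0.24 (SE 0.050, adjusted P = 0.000696) and 0.28 (SE 0.051, adjusted P = 2.91e-05). Days 1 and 7 gave 0.06 (SE 0.050, adjusted P = 0.330) and -0.05 (SE 0.050, adjusted P = 0.418). In vehicle cells all 3 ligands fell by day 7, Tgfb1 by 0.65, Tgfb2 by 1.77 and Tgfb3 by 1.62 on the log2 scale.

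The make-up of the TGF-beta ligand pool differed between groups. Summed over the 3 genes the level was 45.04 ± 1.95 CPM per kb (SD, n = 3) in day 0 vehicle and 18.8 ± 0.514 CPM per kb (n = 4) in day 7 vehicle samples. Tgfb3 made up 52.6% ± 1.02 of the sum in day 0 vehicle and 44.6% ± 0.837 in day 0 C70 samples, and 38.3% ± 0.915 and 27.6% ± 1.14 at day 1. Tgfb1 held 31.7% ± 1.77 at day 0 in vehicle and 52.1% ± 0.289 at day 1.

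**Figure D3:**
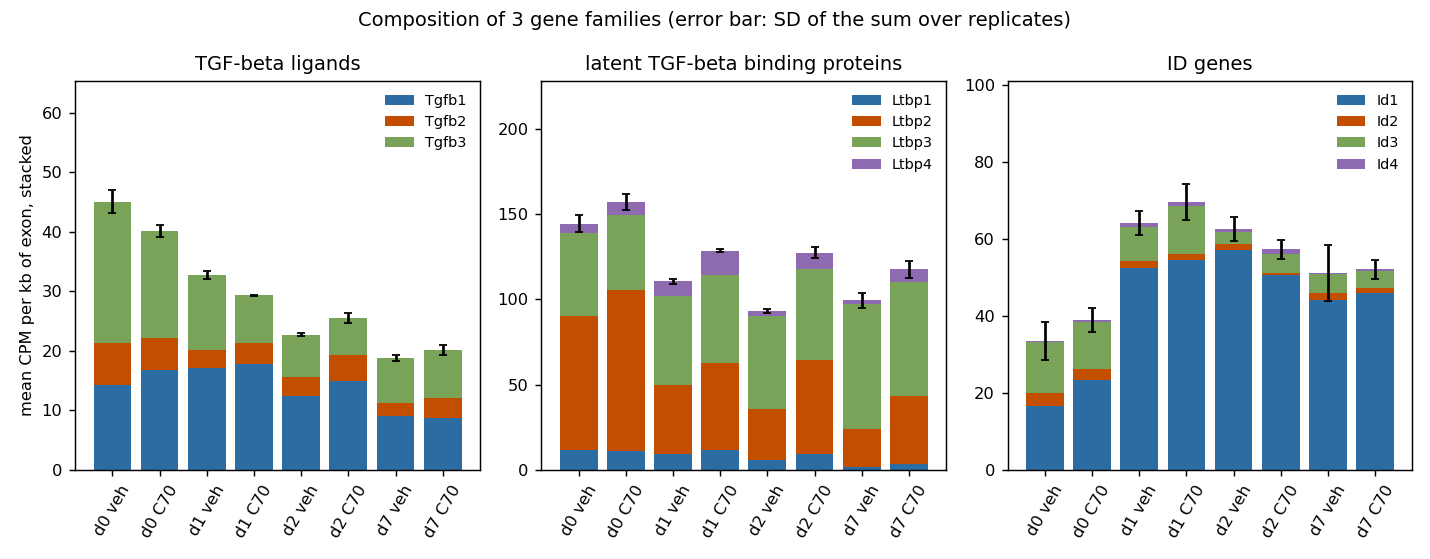
Stacked mean levels (CPM per kb of exon) of the TGF-beta ligands, the latent TGF-beta binding proteins and the ID genes in the 8 groups; error bars are the SD of the summed level over 3 or 4 samples. Tgfb3 is smaller with C70 at days 0 and 1, the Ltbp sum at day 2 is taller after C70 (127 against 93.3), and Id1 takes most of the ID sum from day 1 on in vehicle and at all 4 days after C70.

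The activin subunit genes Inhba and Inhbb were both low, and Inhbb rose after C70 at all 4 days and Inhba at day 1. Inhbb (ENSMUSG00000037035, chromosome 1 from 119415465 to 119422248) encodes the beta B subunit. Its level at day 0 was 7.65, 7.59 and 8.59 CPM in vehicle and 12.02, 12.02, 11.9 and 11.8 CPM in C70 samples. At day 1 it was 2.099, 2.02 and 2.21 and 4.47, 4.48, 4.57 and 4.77 CPM. C70 samples were above vehicle on both days without overlap, by log2 fold changes of 0.58 (SE 0.11, adjusted P = 0.000250) and 1.11 (SE 0.15, adjusted P = 7.28e-07).

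At day 2 Inhbb was at 3.37, 2.33 and 2.66 CPM in vehicle and 6.83, 5.96, 6.88 and 6.45 CPM in C70 samples, a log2 fold change of 1.23 (SE 0.14, adjusted P = 1.07e-08). The day 7 values were 1.28, 1.07, 0.882 and 1.86 CPM and 2.89, 2.31, 1.78 and 2.796 CPM, and here the lowest C70 sample lay below the highest vehicle sample, with a log2 fold change of 0.96 (SE 0.18, adjusted P = 8.37e-05). Inhbb and Ltbp4 were the members that rose at all 4 days. The vehicle level of Inhbb itself dropped 3.75-fold by day 1, 2.85-fold by day 2 and 6.25-fold by day 7.

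Inhba, for the beta A subunit of activin A, was at 12.6, 10.8 and 11.2 CPM in vehicle and 23.99, 18.9, 20.6 and 19.7 CPM in C70 samples at day 1, with no overlap and a log2 fold change of 0.85 (SE 0.11, adjusted P = 3.70e-07). At day 0 the values were 20.3, 23.1 and 25.3 and 26.05, 26.5, 26.9 and 31.2 CPM, a difference that missed the threshold at 0.28 (SE 0.10, adjusted P = 0.0516). Days 2 and 7 gave 0.11 (SE 0.13, adjusted P = 0.506) and 0.35 (SE 0.25, adjusted P = 0.294). The vehicle level fell 19.5-fold to 0.931, 1.52, 1.32 and 0.877 CPM at day 7, and Inhbb made up 33.2% ± 3.71 of the activin subunit sum per kb in day 2 vehicle and 52.4% ± 4.75 in day 2 C70 samples.

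Among 10 receptor and co-receptor genes, 1, 3, 4 and 4 rose after C70 at days 0, 1, 2 and 7, and all calls were rises, beside 5.89%, 13.6%, 16.9% and 14.3% of all genes called higher. The 1 of 10 at day 0 is near that share, and 2 of the 4 calls at day 7 were lost without replicate 1 of the day 7 vehicle group. Acvrl1 (ENSMUSG00000000530, chromosome 15 from 101128522 to 101145336), which encodes the type I receptor ALK1 that binds BMP9 and BMP10, had the largest change. It was at 1.35, 2.17 and 2.76 CPM in vehicle and 4.27, 4.16, 5.03 and 5.02 CPM in C70 samples at day 2, with no overlap and a log2 fold change of 1.15 (SE 0.18, adjusted P = 2.88e-06). At day 1 it was at 2.601, 2.86 and 2.07 and 5.14, 4.28, 4.04 and 3.26 CPM, again without overlap, at 0.73 (SE 0.17, adjusted P = 0.00120).

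At day 7 Acvrl1 was at 18.7, 15.8, 15.6 and 16.4 CPM in vehicle and 22.5, 24.02, 26.1 and 23.9 CPM after C70, with a log2 fold change of 0.54 (SE 0.10, adjusted P = 6.92e-05). At day 0 the samples overlapped, at 9.02, 9.98 and 9.93 and 10.2, 9.07, 9.28 and 7.47 CPM. In vehicle cells it dropped 4.63-fold by day 2 and then stood 1.73-fold above day 0 at day 7, so that its course in time was a dip followed by a rise. The C70 effect at day 2 exceeded that at day 0 by 1.254 (SE 0.22, adjusted P = 3.06e-05) on the log2 scale. It was smaller at day 7 than at day 2, by -0.62 (SE 0.21, adjusted P = 0.0237), but without replicate 1 of the day 2 vehicle group that difference was -0.38 (adjusted P = 0.175 by edgeR).

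Tgfbr3, the co-receptor betaglycan, was at 488, 478 and 472 CPM in vehicle and 746, 651, 706 and 731 CPM in C70 samples at day 2 and at 210.0, 270.2, 277 and 275 and 358, 321, 371 and 372 CPM at day 7. C70 samples were higher on both days with no overlap, by 0.56 (SE 0.067, adjusted P = 2.44e-08) and 0.46 (SE 0.062, adjusted P = 4.54e-07) on the log2 scale. Days 0 and 1 gave 0.15 (SE 0.066, adjusted P = 0.116) and 0.09 (SE 0.066, adjusted P = 0.270). Its vehicle level rose 2.45-fold from day 0 to day 1 before dropping below the day 0 level at day 7.

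Acvr2b, a type II activin receptor gene of low level, was at 2.38, 1.87 and 1.903 CPM in vehicle and 2.61, 3.32, 3.13 and 2.96 CPM in C70 samples at day 0. The ranges did not overlap and the log2 fold change was 0.54 (SE 0.19, adjusted P = 0.0429), a call that was lost when any of 5 libraries of that day was left out, with adjusted P values of 0.0690 to 0.146 by edgeR. At days 1, 2 and 7 it gave 0.19 (SE 0.22, adjusted P = 0.524), 0.09 (SE 0.18, adjusted P = 0.727) and 0.28 (SE 0.16, adjusted P = 0.164).

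Other receptors changed by less. Tgfbr2, the type II receptor for TGF-beta, rose at day 1 (261 ± 6.61 CPM in vehicle and 352 ± 14.2 CPM after C70) and day 2 (194 ± 8.897 and 268 ± 5.13 CPM), by 0.43 and 0.47 on the log2 scale. In vehicle cells Tgfbr2 made up 16.3% ± 0.405 of the summed type I and type II receptor level per kb at day 0 and 33.3% ± 0.894 at day 1. Acvr1, which encodes the BMP type I receptor ALK2, rose at day 2 by 0.43 and at day 7 by 0.37. Acvr2a, another type II receptor gene, rose at day 1 by 0.41 and at day 7 by 0.36. The day 7 calls of these genes were lost without replicate 1 of the day 7 vehicle group (0.32 for Acvr1 and 0.24 for Acvr2a), and that of Acvr1 also without replicate 1 of the day 7 C70 group (0.27). Tgfbr1, Acvr1b, Bmpr1a and Bmpr2 were called at no day, with log2 fold changes from -0.21 (Tgfbr1, day 0) to 0.23 (Bmpr2, day 7). Without replicate 1 of the day 7 vehicle group the day 7 values of Bmpr2 and Tgfbr1 were 0.04 and -0.02, in place of 0.23 and 0.11, and that of Acvr2b was 0.13. Bmpr1a was the steadiest receptor in vehicle cells, at 129.8 ± 4.06 CPM at day 0 and 127 ± 12.6 CPM at day 7.

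All 4 genes of extracellular antagonists, binders and processing in the table, Fstl1, Grem1, Fst and Bmp1, rose after C70 at day 2, and 3 of them rose at day 7, beside 16.9% and 14.3% of all genes called higher on those days. Fstl1 (ENSMUSG00000022816, chromosome 16 from 37776873 to 37836514), a follistatin-like glycoprotein that binds BMPs and other ligands, was at 180.4, 145 and 169.6 CPM in vehicle and 514, 441, 475 and 502 CPM in C70 samples at day 2. At day 1 it was at 1044, 987 and 1017 and 1887, 1839.8, 1733 and 1795 CPM. The C70 samples were higher by far more than the spread within either group, by 0.84 (SE 0.11, adjusted P = 2.04e-07) at day 1 and 1.55 (SE 0.11, adjusted P = 7.34e-13) at day 2 on the log2 scale.

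At day 7 Fstl1 was at 117, 62.04, 83.1 and 92.04 CPM in vehicle and 217, 188, 212 and 230.2 CPM in C70 samples, a log2 fold change of 1.26 (SE 0.10, adjusted P = 2.95e-11) with no overlap. Day 0 samples read 1729.8, 1865 and 1836 and 2149, 2244, 2273 and 2267 CPM, above vehicle but under the fold threshold at 0.30 (SE 0.10, adjusted P = 0.0397). Set beside the vehicle course, in which Fstl1 fell 10.98-fold by day 2, the level in C70 samples at day 2 lay between the vehicle levels of days 1 and 2.

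Grem1 (ENSMUSG00000074934, chromosome 2 from 113746164 to 113758646), the BMP antagonist gremlin, followed a similar course until day 2. It was at 306, 264 and 285 CPM in vehicle and 467, 459, 399 and 474 CPM in C70 samples at day 1, and at 82.9, 82.8 and 82.5 and 178, 142, 156 and 172 CPM at day 2. Neither day showed overlap, and the log2 fold changes were 0.66 (SE 0.087, adjusted P = 3.30e-07) and 0.97 (SE 0.091, adjusted P = 2.15e-10). At day 7 the samples overlapped, at 23.1, 30.04, 30.9 and 29.2 and 23.5, 20.9, 23.5 and 30.8 CPM, with -0.20 (SE 0.097, adjusted P = 0.107). The effect at day 7 differed from that at day 2 by -1.17 (SE 0.13, adjusted P = 5.16e-08), and the day 0 samples, at 1153, 1225 and 1196 and 1271, 1239, 1301 and 1397 CPM, gave 0.13 (SE 0.085, adjusted P = 0.327).

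Fst, the activin antagonist follistatin, changed direction. At day 1 it was at 127, 131 and 140.3 CPM in vehicle and 109, 98.4, 106 and 108 CPM in C70 samples, lower with no overlap at a log2 fold change of -0.34 (SE 0.063, adjusted P = 7.64e-05). This call rested on the fold threshold, since the value was -0.30 without replicate 3 of the day 1 vehicle group and -0.31 without replicate 2 of the day 1 C70 group. At day 2 it was at 37.6, 35.8 and 35.1 and 52.2, 51.2, 51.4 and 51.9 CPM and at day 7 at 19.1, 15.05, 17.1 and 20.9 and 29.7, 31.5, 27.96 and 30.8 CPM. On these days C70 samples were higher without overlap, by 0.51 (SE 0.071, adjusted P = 3.71e-07) and 0.73 (SE 0.074, adjusted P = 2.41e-09). Day 0 gave -0.17 (SE 0.068, adjusted P = 0.0853), and vehicle cells showed a 2.36-fold peak of Fst at day 1.

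Bmp1, a metalloproteinase that cleaves procollagen and the BMP antagonist chordin and is not itself a ligand of the family, was at 186, 186 and 176 CPM in vehicle and 246, 248, 261 and 254 CPM in C70 samples at day 2. At day 7 it was at 69.3, 54.4, 55.1 and 66.6 and 108, 107, 109 and 115 CPM. C70 samples were higher on both days with no overlap, by 0.46 (SE 0.058, adjusted P = 6.52e-08) and 0.84 (SE 0.057, adjusted P = 5.66e-13). Days 0 and 1 gave -0.11 (SE 0.057, adjusted P = 0.177) and 0.25 (SE 0.057, adjusted P = 0.000847), both under the fold threshold.

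Of the 4 latent TGF-beta binding protein genes, Ltbp1, Ltbp2 and Ltbp4 rose at days 2 and 7, beside 16.9% and 14.3% of all genes called higher, while Ltbp3 was called at no day. Ltbp4 (ENSMUSG00000040488, chromosome 7 from 27305136 to 27337692), whose product also guides elastic fibre assembly, had the largest rise of any member for C70 against vehicle. It was at 36.2, 34.7 and 31.9 CPM in vehicle and 50.4, 54.2, 52.9 and 50.6 CPM in C70 samples at day 0, and at 48.7, 57.9 and 56.2 and 86.1, 99.5, 95.8 and 88.1 CPM at day 1. Already on these days the groups did not overlap, with log2 fold changes of 0.60 (SE 0.088, adjusted P = 6.67e-06) and 0.77 (SE 0.083, adjusted P = 1.03e-08).

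At day 2 Ltbp4 was at 20.5, 18.9 and 20.6 CPM in vehicle and 63.4, 56.9, 66.03 and 60.7 CPM in C70 samples, 3.09-fold higher at 1.63 (SE 0.093, adjusted P = 4.73e-15). At day 7 it was at 19.4, 12.5, 15.3 and 18.4 and 46.4, 42.3, 51.99 and 47.3 CPM, at 1.52 (SE 0.090, adjusted P = 3.47e-14). The C70 effect on Ltbp4 was larger at day 2 than at day 0, by 1.03 (SE 0.13, adjusted P = 1.48e-07) on the log2 scale.

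Ltbp1, which tethers latent TGF-beta to fibrillin and fibronectin, was at 60.6, 57.6 and 64.1 CPM in vehicle and 104, 91.5, 97.1 and 98.6 CPM in C70 samples at day 2. At day 7 it was at 18.5, 12.3, 15.7 and 19.1 and 40.1, 29.3, 36.5 and 42.5 CPM. C70 samples were higher on both days without overlap, by 0.69 (SE 0.094, adjusted P = 3.68e-07) and 1.18 (SE 0.10, adjusted P = 1.57e-10), and the effect at day 7 exceeded that at day 2 by 0.49 (SE 0.14, adjusted P = 0.00762). Day 0 gave -0.02 (SE 0.090, adjusted P = 0.929) and day 1 0.27 (SE 0.091, adjusted P = 0.0193). The vehicle level of Ltbp1 fell 7.45-fold from day 0 to day 7.

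Ltbp2, the member of this family that does not bind latent TGF-beta, was at 251, 247 and 246 CPM in vehicle and 457, 431, 460.0 and 463 CPM in C70 samples at day 2. It was at 171, 177, 185 and 203 and 330.3, 293, 337 and 350.1 CPM at day 7. Neither day overlapped, and the log2 fold changes were 0.87 (SE 0.056, adjusted P = 6.69e-14) and 0.83 (SE 0.052, adjusted P = 9.59e-14). At day 1 it rose by 0.35 (SE 0.055, adjusted P = 5.57e-06), a call lost under quantile normalization at 0.31, and at day 0 the value of 0.26 (SE 0.054, adjusted P = 0.000892) was under the fold threshold.

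Ltbp3 moved the other way in time, from 443 ± 4.73 CPM at day 0 to 662 ± 31.9 CPM at day 7 in vehicle cells. C70 samples were at 396 ± 11.7 CPM at day 0 and 607 ± 9.47 CPM at day 7, differences of -0.16 and -0.12 on the log2 scale that did not pass the fold threshold. The summed level of the 4 genes at day 2 was 93.3 ± 1.06 CPM per kb in vehicle and 127 ± 3.11 CPM per kb in C70 samples, of which Ltbp3 made up 58.1% ± 0.823 and 41.9% ± 0.711.

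**Figure D4:**
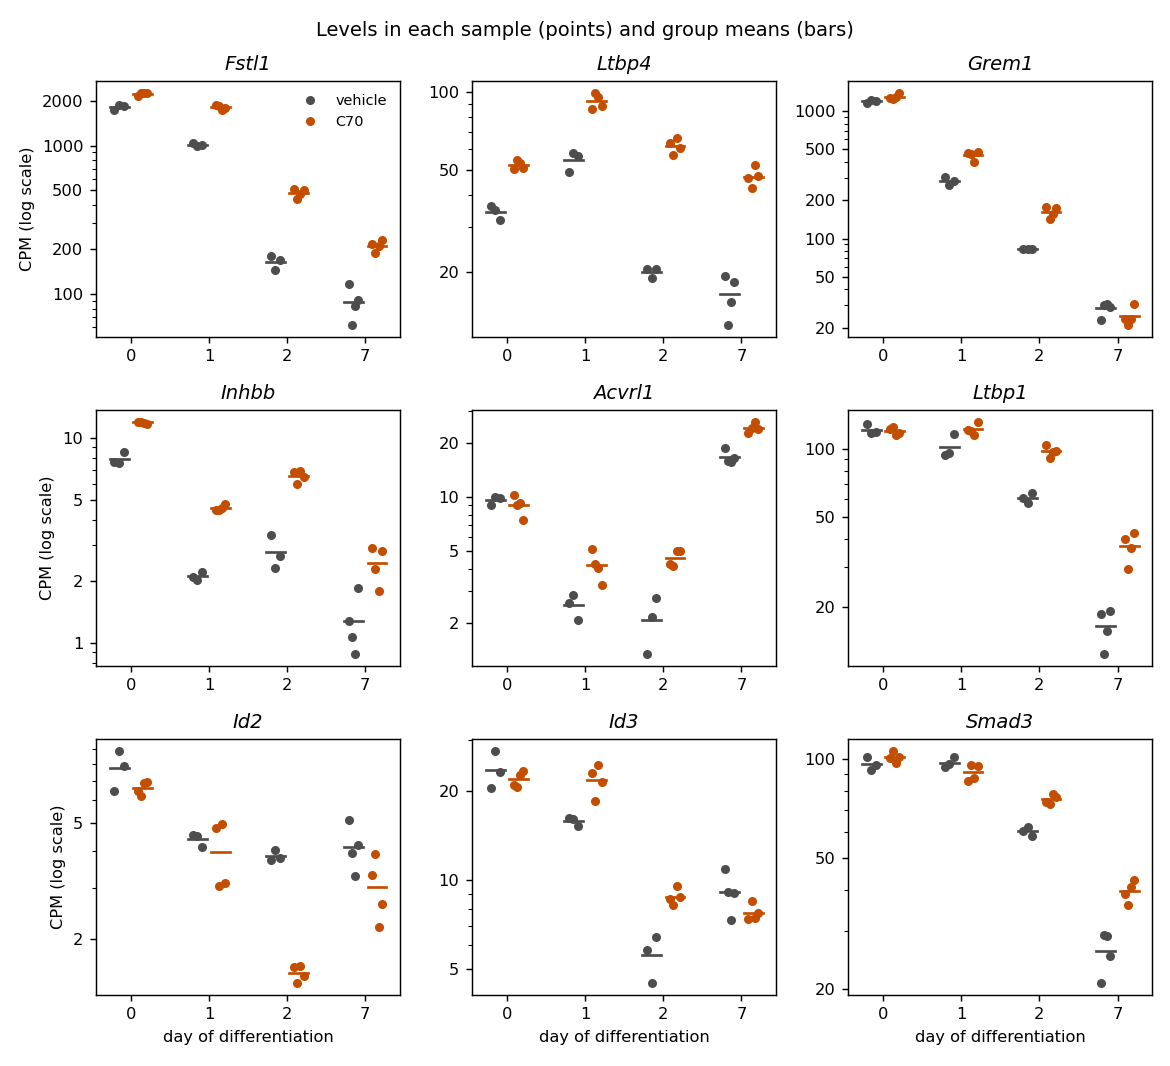
Level of 9 members in every sample (points) with the group mean (short bar), in CPM on a log axis, against the day of differentiation (0, 1, 2 and 7), grey for vehicle (n = 3, 3, 3 and 4) and orange for C70 (n = 4 each). For Fstl1 and Ltbp4 the groups are apart at every day, for Grem1 they meet again at day 7, and for Id2 the C70 samples at day 2 lie far below vehicle (1.53 against 3.86).

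Of 7 SMAD genes, 0 were called at day 0 and 1 was called higher at each other day, Smad7 at day 1 and Smad3 at days 2 and 7, a share near the 13.6%, 16.9% and 14.3% of all genes called higher on those days. At day 0, 0 of them had an unadjusted P value under 0.05 by edgeR, and DESeq2 called 4 of the 37 members higher and 2 lower, as edgeR did. Smad3, the effector of TGF-beta and activin signals, was at 60.4, 62.3 and 58.3 CPM in vehicle and 74.1, 72.9, 78.5 and 76.8 CPM in C70 samples at day 2, and at 20.8, 29.1, 28.9 and 25.2 and 38.8, 36.1, 40.7 and 42.8 CPM at day 7. Both days showed C70 samples above vehicle without overlap, by 0.32 (SE 0.069, adjusted P = 0.000210) and 0.61 (SE 0.072, adjusted P = 4.53e-08). The day 2 value lay at the fold threshold and its call was lost with size factors by relative log expression (0.31) or without replicate 3 of the day 2 vehicle group (0.30), or replicates 3 or 4 of the day 2 C70 group (0.31 and 0.32). Day 0 and day 1 gave 0.07 (SE 0.066, adjusted P = 0.524) and -0.10 (SE 0.066, adjusted P = 0.267). Smad3 fell 3.72-fold by day 7 in vehicle cells, to a mean of 25.97 ± 3.901 CPM, against 39.6 ± 2.87 CPM after C70.

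The inhibitory SMADs were low. Smad7, itself a target of TGF-beta signalling, fell in vehicle cells from 10.8, 11.2 and 10.3 CPM at day 0 to 3.29, 2.68 and 2.31 CPM at day 1 and 1.799, 2.09 and 1.79 CPM at day 2. After C70 it was at 14.2, 13.5, 12.1 and 11.04, then 4.16, 4.53, 2.81 and 4.33 and 2.19, 2.31, 1.497 and 2.05 CPM. The day 1 samples overlapped although the test called them, at 0.53 (SE 0.18, adjusted P = 0.0209), and the call was lost without replicates 2 or 3 of the day 1 vehicle group or 2 or 4 of the C70 group (adjusted P = 0.0558 to 0.116 by edgeR). At days 0, 2 and 7 Smad7 gave 0.24 (SE 0.13, adjusted P = 0.230), 0.09 (SE 0.22, adjusted P = 0.771) and 0.14 (SE 0.22, adjusted P = 0.651).

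Smad6, a target and inhibitor of BMP signalling, was at 4.498, 5.57 and 6.14 CPM in vehicle and 4.64, 3.99, 3.89 and 4.51 CPM in C70 samples at day 2. The samples overlapped at every day, and the values were -0.16 (SE 0.11, adjusted P = 0.335) at day 0, -0.21 (SE 0.13, adjusted P = 0.212) at day 1, -0.33 (SE 0.14, adjusted P = 0.0512) at day 2 and -0.18 (SE 0.11, adjusted P = 0.214) at day 7. In vehicle cells it fell 2.65-fold by day 2 and stood 1.55-fold below day 0 at day 7. The receptor SMADs Smad1, Smad2 and Smad5 and the common partner Smad4 were called at no day, with log2 fold changes of C70 over vehicle from -0.14 (Smad2, day 2) to 0.31 (Smad1, day 1).

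Of the 3 co-repressor genes, Tgif1 and Ski rose on 2 days each and Skil was called at no day. These calls stand beside 13.6%, 16.9% and 14.3% of all genes called higher at days 1, 2 and 7. Tgif1 rose at day 1 (28.3 ± 1.56 CPM in vehicle and 36.97 ± 1.396 CPM after C70) and at day 2 (19.9 ± 0.2400 and 27.4 ± 0.982 CPM), by 0.39 and 0.46 on the log2 scale, and was at -0.19 at day 7. Ski rose at day 2 by 0.33 (49.7 ± 2.595 and 62.6 ± 1.59 CPM) and at day 7 by 0.36 (47.3 ± 3.69 and 60.9 ± 5.12 CPM). The calls of Ski were near the fold threshold and were lost, at day 2, without replicate 3 of the vehicle group (0.29) or replicate 2 of the C70 group (0.32), and at day 7 without replicate 1 of the vehicle group (0.32) or replicate 3 of the C70 group (0.32). The difference of Skil shifted from 0.28 at day 0 to -0.31 at day 2, a change of -0.59 (SE 0.15, adjusted P = 0.00183).

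The ID genes, whose products block basic helix-loop-helix factors, each behaved differently. Id2 fell most. It was at 3.73, 4.05 and 3.79 CPM in vehicle and 1.601, 1.41, 1.62 and 1.49 CPM in C70 samples at day 2, 2.52-fold lower at -1.34 (SE 0.20, adjusted P = 1.83e-06) with no overlap. At day 7 it was at 5.12, 3.94, 3.28 and 4.22 and 3.32, 3.904, 2.201 and 2.64 CPM, overlapping, at -0.45 (SE 0.17, adjusted P = 0.0354), and the call was lost without replicates 1 (-0.33) or 4 of the day 7 vehicle group or 3 or 4 of the day 7 C70 group (adjusted P = 0.0644 to 0.144 by edgeR). Days 0 and 1 gave -0.22 (SE 0.14, adjusted P = 0.333) and -0.15 (SE 0.17, adjusted P = 0.502). Id2 (ENSMUSG00000020644) spans chromosome 12 from 25093799 to 25097140, and its vehicle level went from 6.49, 8.89 and 7.89 CPM at day 0 to 4.56, 4.51 and 4.15 CPM at day 1.

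Id3 moved the opposite way at day 2. It was at 16.2, 16.1 and 15.2 CPM in vehicle and 23.1, 18.6, 24.6 and 21.6 CPM in C70 samples at day 1 and at 5.802, 4.46 and 6.39 and 8.59, 8.21, 9.52 and 8.76 CPM at day 2, higher after C70 with no overlap, by 0.47 (SE 0.10, adjusted P = 0.000573) and 0.67 (SE 0.13, adjusted P = 0.000112). At day 7 the values were 10.9, 9.13, 7.301 and 9.04 and 7.397, 8.46, 7.44 and 7.701 CPM, overlapping at -0.22 (SE 0.12, adjusted P = 0.143), and at day 0 -0.10 (SE 0.099, adjusted P = 0.536). The fall of the effect from day 2 to day 7 was tested and gave -0.89 (SE 0.18, adjusted P = 0.000313).

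Id1 was the one ID gene that grew in vehicle cells at all 3 later days. Its day 0 level was 17.04, 22.7 and 18.4 CPM in vehicle and 27.03, 24.1, 27.4 and 30.5 CPM in C70 samples, a rise of 0.502 (SE 0.095, adjusted P = 0.000252) with no overlap. At day 1 the arms overlapped, at 58.2, 64.8 and 59.4 and 66.6, 59.7, 65.1 and 61.6 CPM, with 0.06 (SE 0.082, adjusted P = 0.618), and days 2 and 7 gave -0.17 (SE 0.082, adjusted P = 0.0779) and 0.06 (SE 0.078, adjusted P = 0.551). Id1 held 49.9% ± 0.901 of the summed ID level per kb in day 0 vehicle and 91.3% ± 0.617 in day 2 vehicle samples.

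Id4 was the lowest member per kb at day 0. It was at 2.92, 2.33 and 3.22 CPM in vehicle and 4.11, 4.72, 4.49 and 3.59 CPM in C70 samples at day 2, and at 1.57, 0.6199, 0.931 and 0.877 and 2.14, 1.66, 1.73 and 2.37 CPM at day 7. Neither day showed overlap, with 0.59 (SE 0.20, adjusted P = 0.0176) and 1.00 (SE 0.27, adjusted P = 0.00341), but the day 2 call was lost without replicate 2 of the day 2 vehicle group (0.46, adjusted P = 0.106 by edgeR). At day 0 the value was 0.66 (SE 0.27, adjusted P = 0.0821), from 1.09, 0.987 and 1.44 and 2.12, 1.86, 1.69 and 1.76 CPM, and at day 1 0.07 (SE 0.19, adjusted P = 0.799).

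Whether the C70 effect itself changed between days was tested by interaction contrasts. Between day 0 and day 2 it changed for 18 of 37 members (15 towards higher and 3 towards lower), against 26.6% of all genes (14.9% higher and 11.7% lower). Fstl1, Grem1, Fst and Bmp1 and 3 of 4 LTBP genes were among the 15, led by Acvrl1 (1.254), Fstl1 (1.247) and Ltbp4 (1.03), and the 3 lower were Skil (-0.59), Id1 (-0.67) and Id2 (-1.12). Between day 2 and day 7 it changed for 10 members, against 20.9% of all genes (11.9% higher and 9.04% lower). Of members 10.8% went higher, near the share of all genes, and 16.2% lower. Here Id2 (0.89), Ltbp1 (0.49), Bmp1 (0.37) and Tgfb2 (0.33) went towards higher, and Grem1 (-1.17), Id3 (-0.89), Tgif1 (-0.66), Acvrl1 (-0.62), Tgfbr2 (-0.56) and Tgfb1 (-0.33) towards lower. The calls of Tgfb1, Tgfb2 and Acvrl1 between days 2 and 7 were lost when single libraries were left out, with lowest values of -0.29, 0.25 and -0.38 in size. For Tgfb2 these libraries include replicate 1 of the day 7 vehicle group (0.30).

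Genes of the pathway outside the members were counted from 7 lists, to be read beside the 5.89%, 13.6%, 16.9% and 14.3% of all genes called higher after C70 at days 0, 1, 2 and 7 and the 3.09%, 7.8%, 13.6% and 4.85% called lower. Of 24 symbols commonly used as TGF-beta or SMAD3 targets, among which Ctgf and Ccn2 name the same gene, 20 were in the table. After C70 5, 13, 17 and 11 of these 20 rose at days 0, 1, 2 and 7, with 0, 1, 0 and 1 lower. Their median log2 fold change at day 2 was 0.89. In vehicle cells 16 of the 20 fell by day 2, when 32.4% of all genes were called lower. The smooth muscle gene Tagln was at 0.625 ± 0.143 CPM in vehicle and 3.36 ± 0.608 CPM in C70 samples at day 2 (log2 fold change 2.40, SE 0.24, adjusted P = 8.14e-10), the matrix metalloproteinase inhibitor gene Timp3 at 3.86 ± 0.806 and 8.15 ± 0.585 CPM (1.09), and the matrix protein gene Postn at 438 ± 28.1 and 970.3 ± 60.7 CPM (1.15). At day 7 Tagln and Timp3 did not pass the test (0.44 and 0.27), while Postn rose by 1.446. Several of these targets are matrix genes that preadipocytes express at high level, and Col1a1 and Col3a1 also stand in the preadipocyte marker list.

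Of 16 genes commonly used as BMP targets 8 were in the table, of which 2, 2, 6 and 4 rose at the 4 days. Gata2 was at 1.05 ± 0.304 CPM in vehicle and 2.300 ± 0.664 CPM in C70 samples at day 2 (1.08), Atoh8 at 5.92 ± 0.739 and 11.7 ± 0.959 CPM (0.99) and Msx1 at 3.897 ± 0.596 and 6.82 ± 0.653 CPM (0.81). Gata2 is also a preadipocyte marker. Among 12 further antagonists and modulators 4, 7, 8 and 9 rose and 0, 1, 0 and 0 fell. The proteoglycan gene Dcn, whose product binds TGF-beta, was at 41.3 ± 0.493 CPM in vehicle and 245 ± 18.4 CPM after C70 at day 2 (2.57), Nbl1 at 4.61 ± 1.32 and 17.2 ± 1.397 CPM (1.90), and the protease gene Htra1 at 0.4897 ± 0.143 and 1.85 ± 0.282 CPM (1.88).

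Among 13 genes of TGF-beta latency, storage and activation, 3, 6, 10 and 6 rose at the 4 days. Lrrc32, which encodes the latent TGF-beta carrier GARP, was at 1.896 ± 0.3004 CPM in vehicle and 7.01 ± 0.926 CPM in C70 samples at day 2 (1.87), Adamtsl4 at 3.54 ± 0.895 and 14.8 ± 0.3601 CPM (2.07) and the protease gene Plau at 1.95 ± 0.0837 and 4.52 ± 1.54 CPM (1.21). Of 5 further receptors and co-receptors 0, 1, 4 and 2 rose, including the pseudoreceptor gene Bambi at day 2 (1.65 ± 0.291 and 2.83 ± 0.594 CPM, 0.77) together with Vasn (0.58) and Neo1 (0.45). Bambi also stands in the list of BMP targets, so its day 2 rise is counted in both lists. Of 21 further ligands only Gdf10, Gdf11 and Inha were in the table, and Gdf11 rose at day 2 (4.74 ± 0.214 and 9.75 ± 1.39 CPM, 1.04), as did Gdf10 (9.09 ± 0.459 and 15.7 ± 0.499 CPM, 0.79), while the inhibin alpha gene Inha rose at day 0 (0.33). Among 25 intracellular regulators 2 rose at each day and 0, 0, 2 and 1 fell, with a median of -0.00 at day 2. Differences between the lists were not tested. Dab2, an endocytic adaptor of TGF-beta receptors, rose at all 4 days and was at 34.1 ± 1.87 and 69.3 ± 2.75 CPM at day 2 (1.02). The co-repressor gene Tgif2 rose at days 2 and 7 (0.48 and 0.59), and Pmepa1, an inhibitor of TGF-beta signalling, rose at day 1 (0.53) and was at -0.10 at day 2.

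Some members overlap or resemble other annotated genes. Exons of Tgfb2, Tgfb3, Acvr2a, Acvrl1, Bmpr1a, Fst, Ltbp2, Ltbp3 and Id4 overlap a gene on the opposite strand, and those of Tgfbr3 and Smad5 a gene on the same strand. Tgif1 has an annotated pseudogene, Tgif1-ps, with which it could share reads. The libraries were strand specific, but the strand setting of the counting is not given in the sources used here, so reads of these partners cannot be told apart from those of the members.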

How the data were processed

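RNA was isolated with a miRNeasy kit and sequenced from strand-specific NuGEN libraries. Per the labels, reads were processed with STAR 2.7.2a on GRCm38 and edgeR 3.26.8. The counting program, its strand setting and the gene filter are not given in the sources used here. Every gene of the table had over 1 CPM in at least 18 of the 29 samples. Absence from the table therefore does not show that a gene was silent in every group. The deposited table holds whole-number counts per gene, which were used as deposited. Samples were grouped by label. Counts were fitted with edgeR 4.0.16 (R 4.3.3) by the quasi-likelihood test with TMM factors and 1 mean per group over all 29 samples, and P values were adjusted over 11959 genes. Each SE was derived from that test, as the size of the log2 fold change divided by the square root of its F statistic. Exon lengths came from the GENCODE annotation of Ensembl release 96, whereas the authors used release 97. Simulated data for day 2 gave calls for 88% of 100 genes changed 1.5-fold and 98% of 100 changed 2-fold, and 6 calls among unchanged genes. Only these genes were changed, in the day 2 C70 group alone, and all others had the same mean in every group. In the real data 30.5% of all genes were called at day 2, so the simulation does not show recovery under such widespread change. Alternatives were other scalings, limma 3.58.1, DESeq2 1.42.0, filters, fold thresholds, a replicate block and leaving out each library. Values per sample are given for up to 20 called members with the largest changes, all TGF-beta ligands and ID genes, Smad3, Smad6 and Smad7, and from each other list up to 3 called genes with the largest changes are named with group means or differences. Members and lists were chosen with earlier results of these data known. Figures were drawn with matplotlib 3.10.9.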

Additional observations from a re-analysis of the deposited data

Results flagged for a closer look

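Single samples lay far from the other 3 of their group for 5 members, by Dixon's ratio at the 95% level. Inhba in replicate 4 of the day 0 C70 group was at 31.19 CPM against 26.05 to 26.86 CPM in the other 3 samples. Tgfbr3 in replicate 1 of the day 7 vehicle group was at 210.0 CPM against 270.2 to 276.9 CPM in the other 3 samples. The same library gave Smad4 at 43.18 CPM against 59.53 to 62.55 CPM in the other 3 samples. Acvr1 in replicate 1 of the day 7 C70 group was at 22.3 CPM against 17.43 to 17.8 CPM in the other 3 samples. Bmpr1a in replicate 2 of the day 1 C70 group was at 124.0 CPM against 119.3 to 119.8 CPM in the other 3 samples. In all, 185 groups of 4 were examined, for which chance gives 9.25 such samples.

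The C70 effect differed between days by edgeR's interaction contrasts, given here as log2 differences with Benjamini-Hochberg adjusted P values. Between day 0 and day 2 it moved towards higher for Tgfb2 (0.7901, adjusted P = 6.85e-07), Inhbb (0.6442, adjusted P = 0.00511), Tgfbr2 (0.3953, adjusted P = 0.000387), Tgfbr3 (0.414, adjusted P = 0.000742), Acvr1 (0.4535, adjusted P = 0.00134), Acvrl1 (1.254, adjusted P = 3.06e-05), Bmp1 (0.5765, adjusted P = 1.23e-06), Fst (0.6808, adjusted P = 1.8e-06), Fstl1 (1.247, adjusted P = 9.02e-08), Grem1 (0.8425, adjusted P = 2.26e-06), Ltbp1 (0.7052, adjusted P = 6.39e-05), Ltbp2 (0.611, adjusted P = 2.13e-07), Ltbp4 (1.027, adjusted P = 1.48e-07), Tgif1 (0.3825, adjusted P = 0.000811) and Id3 (0.7724, adjusted P = 0.00047). It moved towards lower for Skil (-0.5922, adjusted P = 0.00183), Id1 (-0.6749, adjusted P = 7.17e-05) and Id2 (-1.119, adjusted P = 0.000672). Between day 2 and day 7 it moved towards higher for Tgfb2 (0.3254, adjusted P = 0.0292), Bmp1 (0.3746, adjusted P = 0.000581), Ltbp1 (0.4943, adjusted P = 0.00762) and Id2 (0.8866, adjusted P = 0.0118). It moved towards lower for Tgfb1 (-0.3331, adjusted P = 0.000569), Tgfbr2 (-0.5613, adjusted P = 2.73e-06), Acvrl1 (-0.6161, adjusted P = 0.0237), Grem1 (-1.167, adjusted P = 5.16e-08), Tgif1 (-0.6566, adjusted P = 1.75e-06) and Id3 (-0.8936, adjusted P = 0.000313).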

How the results depend on the processing

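Of 174 called results, 0 reversed under any alternative or left-out library with edgeR, limma or DESeq2. Under the alternatives 32 of 1526 values lost their call, and on leaving out single libraries 46 of 5046 did, each over 16 results. Each of the 29 libraries was left out for every result, also where its group was not part of the comparison. The 46 of 5046 is therefore not a rate of loss among libraries of the groups compared. With the adjusted P value alone 11 members were called at day 0, as were 19.8% of all genes. A fold threshold of 1.5 gave 1, 7, 10 and 10 members at days 0, 1, 2 and 7, beside 3.28%, 9.12%, 14.5% and 8.8% of all genes. For the change in effect between days 2 and 7 it gave 5 members. The share of all genes was not counted for that contrast at this threshold, so the 5 are not read as a result about the members. Leaving out each library gave 5 to 7 members at day 0, 12 to 15 at day 1, 17 to 20 at day 2 and 12 to 17 at day 7. For vehicle at days 1, 2 and 7 the ranges were 27 to 28, 29 to 31 and 33 to 34, and for the changes in effect 18 to 19 and 8 to 12. Samples with the same replicate number did not deviate together, with correlations from -0.205 to 0.214 over 13 pairs, so the numbers were not taken to pair samples. With only the groups compared in the fit 7, 14, 20 and 14 members were called at the 4 days, and adding the replicate block to that fit gave 6, 14, 19 and 13. The cause of lost calls was not tested. The lowest member count of 11 limits the precision of the lowest members, such as Id4.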
